A study of Mus musculus with 2 samples.

Results

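Amino acid transporters of 7 solute carrier families were examined in cultured mouse RPE (retinal pigment epithelium, the pigmented layer behind the photoreceptors) with and without interferon gamma (IFNg). Members were all genes whose annotated symbol begins with Slc1a, Slc3a, Slc6a, Slc7a, Slc36a, Slc38a or Slc43a, with all probe sets that named such a gene alone. This gave 63 genes with 125 probe sets, of 18193 genes and 34945 probe sets in all. A further probe set named Slc1a2 together with another gene and was left out. The 63 symbols included Slc7a6os, Slc36a1os and Slc6a19os, genes on the strand opposite a transporter gene, which the prefix rule takes in and which are not transporters.

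The comparison rests on 2 cultures and 1 array for each, RPE without treatment against RPE given IFNg at 100 U/ml for 24 h. Both were primary cultures grown for 14 days in DMEM with 20% FBS, were 95% cytokeratin-positive by the labels, and spent the night before RNA extraction without serum. The sources used here do not give the strain or age of the mice. With 1 array per group there is no replicate and no p-value, the number of arrays limits the precision, and an effect of IFNg and a difference between these 2 cultures cannot be told apart. The words higher and lower describe these 2 arrays.

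Amino acid transporters of the plasma membrane carry amino acids as exchangers, as sodium- or proton-coupled symporters or as uniporters, and several related carriers work on lysosomes. Many SLC7 proteins are light chains that reach the cell surface only when joined to a heavy chain of the SLC3 family. In the eye the RPE stands between the choroidal blood and the retina and passes amino acids, taurine and creatine to the photoreceptors. IFNg is known for starving pathogens of tryptophan and for routing arginine to nitric oxide, so transport of both amino acids has been of interest in interferon-treated cells.

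The arrays were checked first on genes outside the transporter families. All 10 measured genes of a list of known IFNg targets were at least 2-fold higher on the IFNg array, among them Cd274, the gene for PD-L1, with signals of 13.6 and 419.5. All 7 measured housekeeping genes lay within 2-fold, with a median log2 ratio of -0.03. The epithelial keratins Krt8 and Krt18, the eye transcription factor gene Otx2 and tyrosinase, Tyr, were above the floor on both arrays, whereas the defining RPE genes Rpe65 and Best1 were at the floor on both. Of 13 measured RPE markers, Ttr, Tyrp1, Rdh5 and Rlbp1 were lower by 2-fold or more on the IFNg array. The summed signal of the list was 4766 untreated and 5247 with IFNg, of which Krt18 gave 1390.4 and 2445.9. Of the 13 markers, 8 were below a log2 ratio of 0 and 5 above it. All 10 fibroblast markers were above the floor on both arrays, with sums of 65941 and 60273. Macrophage markers were above the floor in 9 of 11 genes and below a log2 ratio of 0 in all 9, with Csf1r, Fcer1g and Laptm5 at least 2-fold lower and sums of 1347 and 852, while Aif1 and Itgam were at the floor on both arrays. Markers of lymphocytes and NK cells exceeded the floor in 1 of 9 genes (sums 76 and 79.8). Endothelial and pericyte markers did so in 6 of 8 (sums 1251 and 1439). Of these 6, 5 were below a log2 ratio of 0, with Cspg4 2.35-fold lower, while Rgs5 had 967 and 1290.5. Photoreceptor and neuron markers exceeded the floor in 3 of 9 (sums 82.6 and 242). Of these sums Tubb3 gave 15 and 155.7, at least 7.63-fold higher. Melanocyte and Schwann cell markers did so in 4 of 5 (sums 192 and 133). Among markers of Muller glia and astrocytes, glia that take up glutamate, 5 of 8 were above the floor (sums 13451 and 14734). Most of these sums came from Vim (11731.9 and 13104.1). Of the 5 genes, 3 were above a log2 ratio of 0 and 2 below it, among the latter Glul (-0.84). Gfap, Aqp4 and Sox2 were at the floor on both arrays. The part of these markers in the transporter values was not tested.

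At the 2-fold threshold, 1 of 37 measured members differed between the 2 arrays. The gene for LAT2, Slc7a8, was 2.43-fold lower and was the only member past 2-fold by its chosen (brightest) probe set, and no member was 2-fold higher. Of the 63 genes, 37 were above the floor on 1 or both arrays (31 on both, 4 on the untreated array only and 2 on the IFNg array only). The floor was the pooled median signal of 20.4, below which no ratio was formed, and where 1 array lay at the floor the fold is a bound, written "at least". Over all 12743 measured genes, 8.82% were at least 2-fold higher and 4.48% at least 2-fold lower. With 37 measured members, a count of 1 lower is near the latter share and is not read as a result about the family.

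Within 2-fold, most members leaned lower on the IFNg array. A log2 ratio (IFNg over untreated) below 0 was found in 31 of 37 measured members, beside 57.5% of all measured genes, and in 27 of 37 after a loess curve was subtracted, beside 54.5%. Leaving out Slc7a6os, which is not a transporter gene, gave 30 of 36 below 0 with no loess curve. Of the 31 members above the floor on both arrays, 27 had a ratio below 0, beside 57.7% of such genes. The ratio was also below 0 in 6 of the 7 housekeeping genes, where the median was -0.03. The median log2 ratio of the members was -0.24, with -0.12 over all genes, and the middle 50% of the members lay between -0.48 and -0.02. With the threshold lowered to 1.5-fold, 6 members were lower and 1 was higher, against 18.7% and 17.9% of all genes. The only spread the design gives is the technical one between probe sets for 1 gene. The pooled SD of their log2 ratios was 0.44 over 4419 genes, and 0.38 over the 14 members with more than 1 probe set above the floor on both arrays. This is not a spread between cultures.

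**Figure D1:**
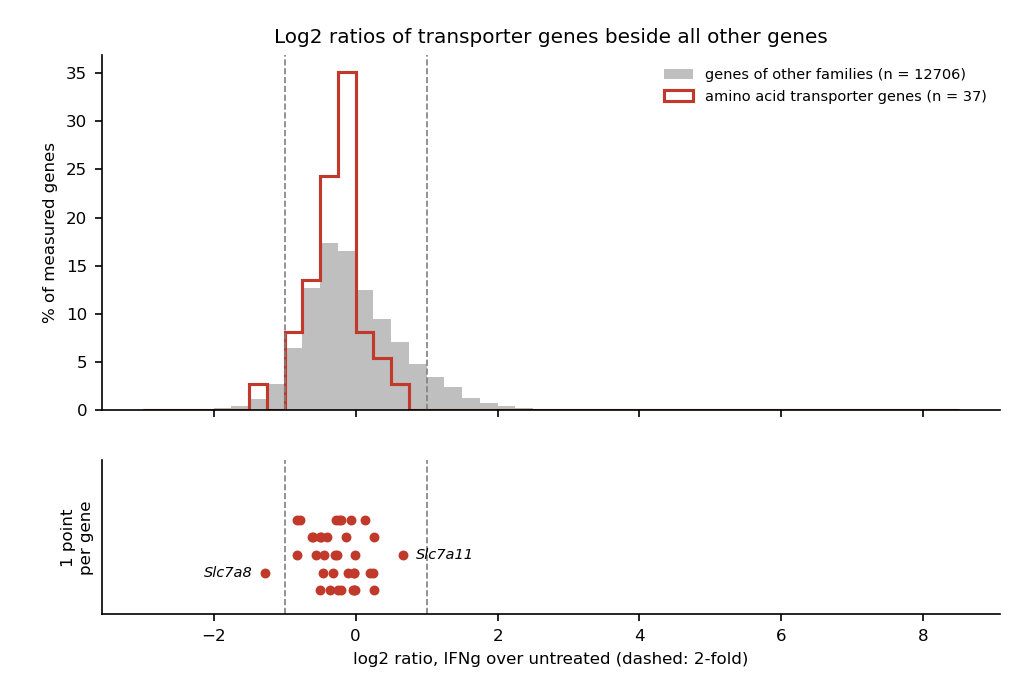
Log2 ratios (IFNg over untreated, 1 array each) of the 37 measured members, Slc7a6os included, beside those of 12706 genes of other families (grey, in %). Members are the red outline, in % of genes, and 1 point per gene below. Members lie between -1.28 (Slc7a8) and 0.67 (Slc7a11), and none is in the long upper tail of the other genes.

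The heavy chain gene Slc3a2, which encodes CD98 (4F2hc), the partner of most SLC7 light chains, had signals of 2374.1 untreated and 1671.4 with IFNg. Both were far above the floor, and the gene was 1.42-fold lower with IFNg (log2 ratio -0.51). The second heavy chain gene, Slc3a1, which encodes rBAT of kidney and intestine, was at the floor with and without IFNg (20.3 and 3.9).

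Of the 10 light chain genes, 6 were measured. Slc7a8 encodes LAT2, a sodium-independent exchanger of large and small neutral amino acids that pairs with CD98. Its signals were 353.5 untreated and 145.7 with IFNg, from a single probe set (Entrez gene 50934), so no second probe set stands beside this value. Both signals were far above the floor, and the log2 ratio was -1.28. Under every scaling, floor and pseudocount tried, the ratio stayed between -1.36 and -1.19. The macrophage markers and some RPE markers given above were also lower on this array, and their part in the Slc7a8 value was not tested.

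Slc7a8 is shown with its upstream sequence because it is the member with the largest difference. RefSeq, in the build GRCm38.p6, places the 250 bases before its start at chr14:54781887-54782136 on the minus strand, and no letters are in capitals because CARE, the amino acid response element described further on, was not found there.
Slc7a8 upstream: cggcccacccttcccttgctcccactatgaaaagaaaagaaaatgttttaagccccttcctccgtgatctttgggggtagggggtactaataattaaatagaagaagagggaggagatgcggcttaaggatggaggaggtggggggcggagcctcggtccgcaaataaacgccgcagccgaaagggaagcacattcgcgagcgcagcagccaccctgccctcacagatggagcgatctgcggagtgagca

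Slc7a5 encodes LAT1, the other CD98-linked exchanger for large neutral amino acids such as leucine, phenylalanine and tryptophan. It had signals of 309.9 and 201.5 (log2 ratio -0.62). Slc7a6, the gene of y+LAT2, which exchanges cationic for neutral amino acids, had signals of 189.8 and 110.4 (log2 ratio -0.78), and its second probe set had a smaller difference (102.1 and 86.5, -0.24). Slc7a7, which encodes the related y+LAT1, had nearly equal signals of 62.7 and 62.0, while a dimmer probe set had 35.8 and 25.6 (-0.48). These 3 genes lay within 2-fold. Slc7a10, the gene of the small neutral exchanger Asc-1, was dim, with 28.2 untreated and 11.9 with IFNg, at least 1.38-fold lower.

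Slc7a11, which encodes xCT, the cystine and glutamate antiporter that feeds glutathione synthesis, was the member with the highest ratio. Its signal was 19.8 untreated, just under the floor, and 32.4 with IFNg, a difference of at least 1.59-fold. Both values are near the floor, and its other probe set was under it on both arrays (9.9 and 0.9). The light chain genes Slc7a9, Slc7a12, Slc7a13 and Slc7a15 were at the floor with and without IFNg, with signals between 1.1 and 18.6 by their chosen probe sets.

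The SLC43 family holds further carriers of large neutral amino acids, which act without a heavy chain. Slc43a1 (LAT3) had signals of 44.4 and 32.5 and a log2 ratio of -0.45. Slc43a2 (LAT4) had 80.4 and 60.5 (-0.41), while its second measured probe set had 38.5 and 39.7 (0.04). Slc43a3, known as a purine base transporter rather than an amino acid carrier, had 182.6 and 155.2 (-0.23). The 5 genes of leucine-type (system L) transport were Slc3a2, Slc7a5, Slc7a8, Slc43a1 and Slc43a2. All were below 0 by their chosen probe sets, from -1.28 to -0.41, and only Slc7a8 was past 2-fold. Above the floor on both arrays, 57.7% of all genes and 27 of 31 members were also below 0. This direction is therefore not particular to these 5 genes.

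**Figure D2:**
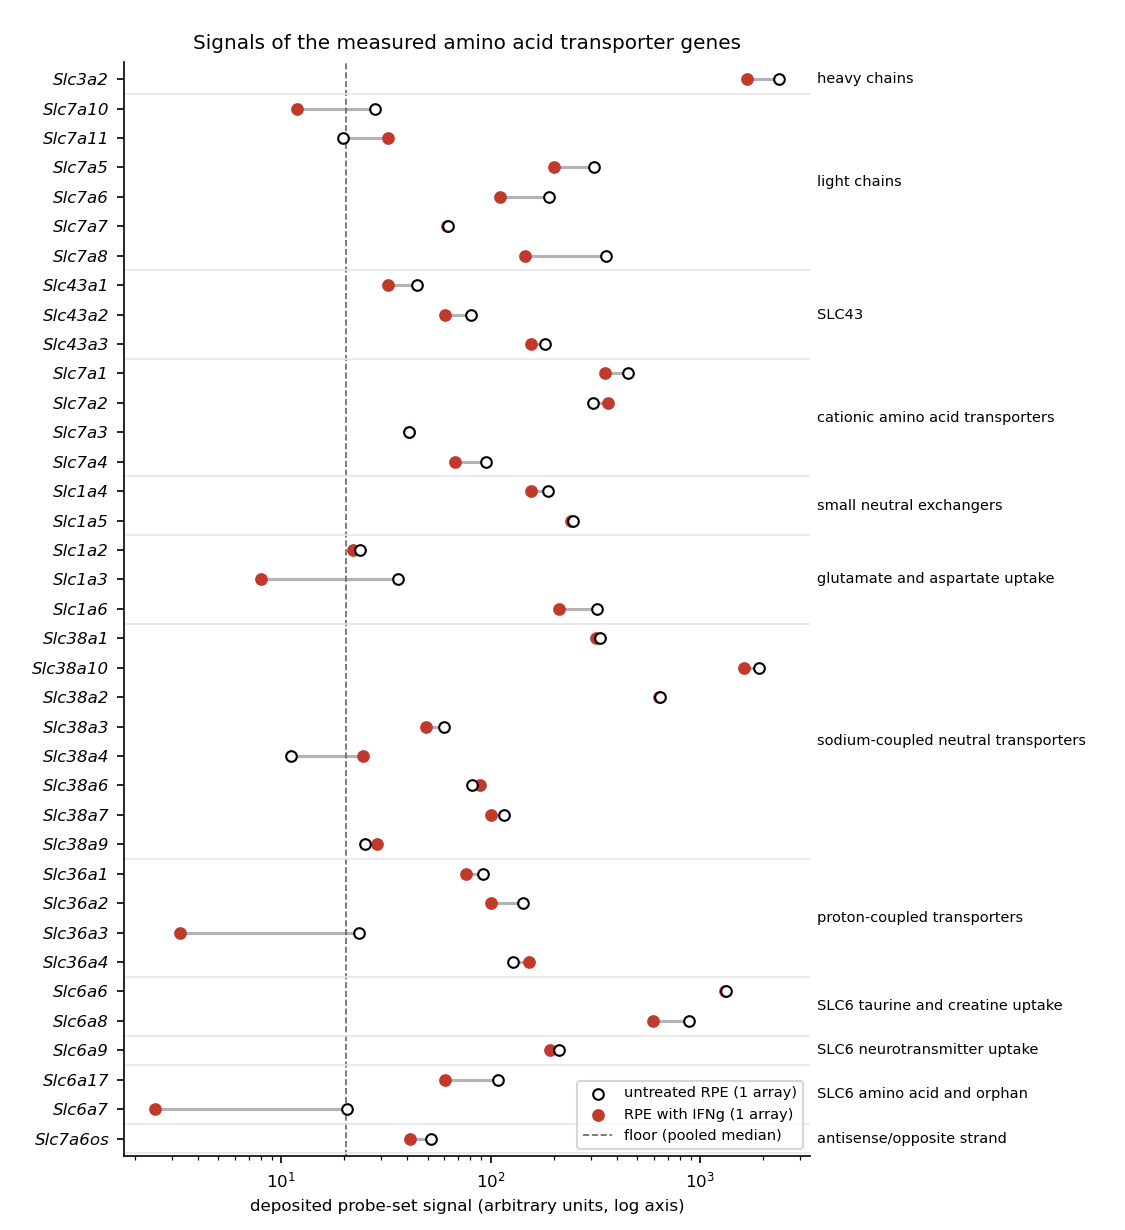
Deposited signal of each measured member (log axis) on the untreated array (open circles) and on the IFNg array (red), by role, with the floor of 20.4 as a dashed line. Lengths of the grey lines compare the 2 arrays within a gene, and signals of different genes are not comparable. Slc7a8 (353.5 and 145.7) has the widest gap of the members measured above the floor with and without IFNg.

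Cationic amino acid transporters (CATs) bring in arginine, lysine and ornithine and supply arginine to nitric oxide synthase. Of 5 genes, 4 were measured, and all 4 lay within 2-fold. Slc7a1, the widely expressed CAT-1, had signals of 451.1 and 352.3 (log2 ratio -0.36), and its second measured probe set had 232.5 and 153.5 (-0.60). Slc7a2, the gene of CAT-2, which is known as inducible in macrophages, had 307.4 untreated and 363.4 with IFNg by its brightest probe set (0.24). Its other 3 probe sets were lower with IFNg, at 137.7 and 69.5 (-0.99), 80.5 and 58.0 (-0.47), and 33.9 and 14.2 (at least 1.66-fold lower), so its direction depended on the probe set. Slc7a3 (CAT-3) had 40.8 and 40.6. Slc7a4, a related gene without established transport activity, had 94.7 and 67.7 (-0.48), while a probe set whose ID marks shared sequence had 41.9 and 45.2 (0.11). Slc7a14 was at the floor.

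The SLC1 family includes sodium-dependent uptake of glutamate and aspartate and the small neutral exchangers ASCT1 and ASCT2. Slc1a4 (ASCT1, which exchanges alanine, serine and cysteine) was lower with IFNg in each of its 3 probe sets, but by different amounts. The brightest had 187.4 and 155.2 (log2 ratio -0.27), the next 127.9 and 72.3 (-0.82), and the last 128.5 and 40.0 (-1.68, 3.21-fold lower). The mean over them was -0.93, still within 2-fold. Slc1a5, the glutamine exchanger ASCT2, had nearly equal signals of 247.7 and 242.1 (-0.03). A dim second probe set of it had 27.6 and 1.5, at least 1.35-fold lower.

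Of the 5 glutamate transporter genes, 3 were measured. Slc1a6 (EAAT4, best known from cerebellar Purkinje cells) had 323 and 212.1 by a single probe set, a log2 ratio of -0.61. Slc1a3 (GLAST, the glutamate transporter of Muller glia) was dim and its probe sets disagreed. The brightest had 36.1 and 8 (at least 1.77-fold lower) and another 26.3 and 21.8 (-0.27), whereas a further one had 1 and 27.4 (at least 1.34-fold higher). Of its other dim ones, 27.4 and 4.1 lay below 0 and 5.1 and 21.4 above it. Slc1a2 (GLT-1) had 23.8 and 22.1, close to the floor. Slc1a1 (EAAT3) and Slc1a7 (EAAT5) were at the floor on both arrays, although the untreated signals of 20.4 and 19.3 lay just under it.

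Sodium-coupled neutral transporters (SLC38) take up glutamine, alanine and other small neutral amino acids. Of 9 genes, 8 were measured and all lay within 2-fold, with a median log2 ratio of -0.05. The system A genes Slc38a1 and Slc38a2, which encode SNAT1 and SNAT2, had nearly equal signals on the arrays, at 333.1 and 318.5 (-0.06) and at 644.7 and 633.4 (-0.03). A further probe set of Slc38a1 had 258.2 and 254 (-0.02). Slc38a2 is known to be induced when amino acids are scarce. Its dimmer probe sets had 148.6 and 156.9 (0.08) and 24.8 and 35.0 (0.50). Slc38a4, also of system A, was under the floor untreated and just above it with IFNg (11.1 and 24.5).

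Slc38a3, a system N gene for glutamine and histidine, had 60.1 and 49.2 (-0.29), and the system N gene Slc38a5 was at the floor. The lysosomal carriers Slc38a7 and Slc38a9, the second of which reports arginine to mTORC1, had 115.3 and 100.0 (-0.21) and 25.1 and 28.8 (0.20). Slc38a9 was dim in all of its 7 probe sets, with no signal above 35.1. Slc38a6 had 81.6 and 89.3 (0.13). Slc38a10 had 1914.1 and 1618.0 (-0.24), and 4 further probe sets above the floor on both arrays also had ratios below 0, from -0.88 to -0.33. A probe set whose ID marks cross-hybridising sequence went the other way, with 10.4 and 68.9 (at least 3.38-fold higher). It was the member probe set with the highest ratio. The 5 probe sets of the same gene above the floor on both arrays did not share its direction. Among these, the probe set with 91.3 and 72.8 (-0.33) had an ID of the same kind.

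Proton-coupled transporters (SLC36) move small neutral amino acids such as proline and glycine across lysosomal and plasma membranes. All 4 genes lay within 2-fold. Slc36a1 (PAT1) had 91.7 and 76.5 (log2 ratio -0.26), and Slc36a2 (PAT2) had 142.5 and 100.6 (-0.50). Slc36a4 (PAT4) was among the few members with a higher signal on the IFNg array, at 127.7 and 152.4 (0.25). Slc36a3 was near the floor, with 23.5 and 3.3.

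In the SLC6 family, which couples uptake to sodium and chloride, the measured genes were mostly those of non-neurotransmitter substrates. Slc6a6, the taurine transporter, had signals of 1329.9 and 1313.5, a log2 ratio of -0.02, and its other bright probe set had 609.3 and 623.3 (0.03). Dimmer ones had 80.2 and 50.4 (-0.67) and 31 and 33.2 (0.10). Taurine is the osmolyte that RPE passes to photoreceptors, and its transporter was nearly equal on the arrays in both of these probe sets. Slc6a8, the creatine transporter, was lower with IFNg in both of its probe sets, at 881.2 and 597.3 (-0.56) and at 572.5 and 309.4 (-0.89). Neither reached 2-fold.

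Slc6a9 (GlyT1, a glycine transporter) had 212 and 192.1 (log2 ratio -0.14), with 82.4 and 72.9 in its second probe set (-0.18). It was the only measured gene of 8 neurotransmitter transporters. The noradrenaline, dopamine and serotonin transporter genes Slc6a2, Slc6a3 and Slc6a4, the GABA and betaine transporter genes Slc6a11, Slc6a12 and Slc6a13, and the second glycine transporter gene Slc6a5 were at the floor on both arrays. Slc6a17, a vesicular neutral amino acid transporter of neurons, had 108 and 60.9 (-0.83) by its brightest probe set. A second one had 52.2 and 14.6 (at least 2.56-fold lower) and another, under the floor untreated, 16.7 and 41.3 (at least 2.02-fold higher), so its probe sets disagreed in direction. Slc6a7, a proline transporter gene, was near the floor (20.7 and 2.5). The other 8 genes of this group, among them Slc6a14, Slc6a15, Slc6a19 and Slc6a20a, were at the floor. The opposite-strand gene Slc7a6os had 51.7 and 41.4 (-0.32), and Slc36a1os and Slc6a19os were at the floor.

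In all, 26 members were at the floor on each array, with signals from 1 to 20.4 and a median of 8.6 for the brighter array. The members nearest to the floor from above were Slc6a7 (20.7), Slc36a3 (23.5) and Slc1a2 (23.8) by the brighter array, and from below Slc1a1 (20.4), Slc3a1 (20.3) and Slc1a7 (19.3). No detection calls were used, so a signal near the floor does not say whether the transcript was present.

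Counted by probe set, 73 of 125 were measured, of which 2 were at least 2-fold higher and 3 at least 2-fold lower. Over all probe sets, 9.36% were 2-fold higher and 4.69% lower. The 3 lower ones belonged to Slc7a8, Slc1a4 and Slc6a17, and the 2 higher ones to Slc38a10 and Slc6a17, both under the floor on the untreated array. At 1.5-fold, 4 were higher and 15 lower, beside 19.2% and 17.9% of all probe sets. Of the 73, 53 had a ratio below 0, beside 54.2% of all measured probe sets.

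**Figure D3:**
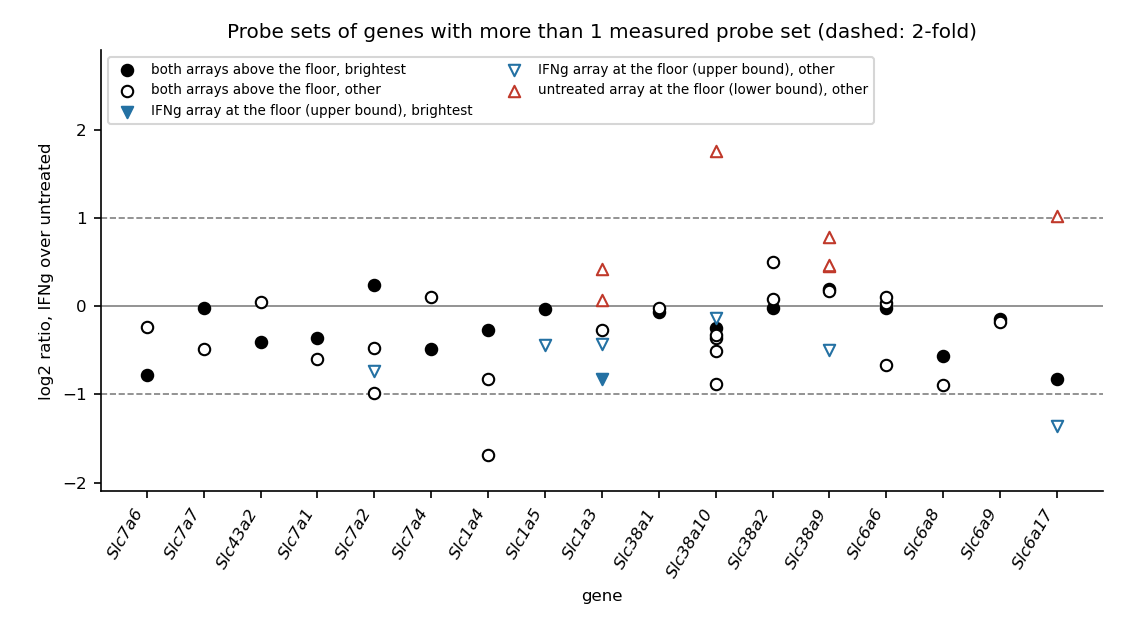
Log2 ratio of every measured probe set for the members with more than 1, with the brightest filled and others open; triangles mark bounds where 1 array was at the floor, and dashed lines mark 2-fold. The probe sets of Slc1a4 reach from -1.68 to -0.27, while those of Slc6a17, Slc38a10 and Slc7a2 lie on both sides of 0.

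Several members are neighbours on their chromosome in the RefSeq gene order (GRCm38.p6), with no other protein-coding gene starting between them. The adjoining Slc38a1, Slc38a2 and Slc38a4 had log2 ratios of -0.06, -0.03 and 0.26 (a bound), so they did not share a sign. The adjoining Slc36a3, Slc36a2 and Slc36a1 had -0.20 (a bound), -0.50 and -0.26, and Slc7a6 and Slc7a6os had -0.78 and -0.32. None of these genes was past 2-fold by its chosen probe set.

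Promoters were read because ATF4, the factor of the amino acid response, binds CARE elements in several transporter genes. RefSeq windows of 300 bases (250 before and 50 after a start, GRCm38.p6) were found for 46 of the 63 members, 67 windows in all. Both strands were searched for TGATGNAA (CARE). It was found in 5 of the 67 windows, beside 3.97% of all 32851 windows. The numbers of member windows are small, and a match is a description of letters and not a bound site.

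The windows with a match that belonged to measured members of the text were those of Slc7a11 and Slc7a7, with 2 distinct matches each, and Slc1a4. Stretches of 30 bases are printed for Slc7a11, the member with the highest ratio, and for Slc1a4, whose probe sets were all lower, with the matched letters in capitals. They lie at chr3:50443661-50443690, chr3:50443642-50443671 and chr11:20332699-20332728, all on the minus strand. The Slc1a4 match begins 4 bases before the start and runs past it.
Slc7a11 CARE, farther from the start: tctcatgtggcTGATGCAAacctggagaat
Slc7a11 CARE, nearer to the start: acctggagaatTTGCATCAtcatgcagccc
Slc1a4 CARE: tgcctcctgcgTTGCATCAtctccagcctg
By their chosen probe sets, Slc7a11 had a ratio above 0, a bound near the floor, and Slc1a4 had one below 0. Slc7a7 had nearly equal signals (62.7 and 62.0). A link between the motif and these values was not tested.

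Genes that respond to a lack of amino acids were measured beside the transporters, because ATF4 and its targets adjust transporter expression. Over all measured genes, 8.82% were at least 2-fold higher and 4.48% at least 2-fold lower. These shares stand beside the counts of this and the following lists, which hold few genes each. Of 30 measured genes of this list, 4 were at least 2-fold higher and none lower, with a median log2 ratio of -0.13. The list also holds kinases of eIF2, among them the interferon-induced Eif2ak2, so the 4 are not all genes of the amino acid response. The 4 were Eif2ak2 (PKR, an interferon-induced kinase that phosphorylates eIF2, 4.57-fold), Vldlr (a lipoprotein receptor, 3.43-fold, with 1.38- to 2.08-fold for its other probe sets), the ATF4 partner gene Cebpg (2.37-fold, with 0.46 on the log2 scale for a second probe set) and the stress factor Atf3 (2.09-fold). With probe sets averaged, or with the floor at the 75th percentile, 2 genes were 2-fold higher. Atf4 itself had 1498.7 and 1597.2 (log2 ratio 0.09). The ATF4 targets Asns (asparagine synthetase, -0.23), Trib3 (-0.37) and Chac1 (-0.36) lay within 2-fold below 0, and Ddit3 (CHOP, 0.62) within 2-fold above it.

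Of 33 measured genes that pass amino acid supply to the growth kinase mTORC1, 1 was 2-fold higher and 3 were 2-fold lower, with a median of -0.18. Fnip1, which with folliculin acts on the Rag GTPases, was 3.65-fold higher. The lysosomal transcription factor Tfeb (2.77-fold), the GATOR2 subunit Wdr59 (2.40-fold) and the GATOR1 subunit Nprl3 (2.04-fold) were lower. After a loess curve was subtracted 2 were lower, and with a pseudocount of 16 or the floor at the 75th percentile 1 was lower; that floor left 0 higher. The leucine sensor gene Sesn2 had 189.8 and 99.8 (-0.93), and Mtor had 271.4 and 240 (-0.18).

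Enzymes that use the transported amino acids were also counted. Of 17 genes of glutamine, glutamate and aspartate metabolism, none passed 2-fold (median log2 ratio -0.20). Glutamine synthetase, Glul, had 1041.5 and 580.3 (-0.84), and its second probe set had 768.3 and 332 (-1.21). With probe sets averaged, 1 gene of the list was 2-fold lower. Gfpt1, which uses glutamine for hexosamine synthesis, had 156.8 and 312.9 (1.00 after rounding, just under 2-fold), while another probe set of it had -0.08. Gfpt2 (-0.88) and the pyrimidine synthesis gene Cad (-0.80) lay below 0.

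Of 15 genes of glutathione synthesis and cystine use, 1 was 2-fold lower and none higher (median -0.30). The lower one was Ggt5, a glutathione-cleaving enzyme (2.13-fold), although another probe set of it had 0.03, and with probe sets averaged or a pseudocount of 16 the list had 0 lower. By their chosen probe sets, Gclm (0.90) and Gclc (0.64), the subunits of the rate-limiting enzyme of glutathione synthesis, lay above 0 within 2-fold. A second probe set of Gclm had 41 and 129.9 and was 3.17-fold higher. With probe sets averaged or a loess curve subtracted, 1 gene of the list was 2-fold higher. Chac2 (0.91) also lay above 0 within 2-fold, while Ggt7 was at -0.81.

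Of 13 measured tryptophan and arginine genes, 2 were 2-fold higher and 2 lower (median -0.26). Wars, the tryptophanyl-tRNA synthetase, was 8.67-fold higher, with signals of 250.6 and 2172.2, and 3 further probe sets had log2 ratios from 2.78 to 3.14. The inducible nitric oxide synthase Nos2 was at least 2.65-fold higher (2.3 and 54.1). The creatine synthesis gene Gamt was 2.28-fold lower, and Nos1 at least 2.21-fold lower, with a further dim probe set in the opposite direction (0.37). With probe sets averaged 1 gene was lower, and with the floor at the 75th percentile 1 was higher and 0 lower. Ido1, which degrades tryptophan, was dim, with 8.1 and 29.4. In the same arrays, the tryptophan carrier gene Slc7a5 had a ratio of -0.62. The arginine carrier genes Slc7a1 and Slc7a2 had -0.36 and 0.24 by their chosen probe sets. The other probe sets of Slc7a2 lay below 0, from -0.99 to -0.47, so its direction is not settled.

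Of 13 genes of branched-chain amino acid breakdown, 2 were 2-fold higher and none lower (median -0.07). These were the phosphatase Ppm1k, which activates the branched-chain ketoacid dehydrogenase (at least 4.36-fold), and Dbt, a subunit of that complex (2.69-fold, from a dim untreated signal of 27.3), and the floor at the 75th percentile left 0 higher. Ivd (-0.96) and Mccc2 (-0.81), later steps of leucine breakdown, lay below 0 within 2-fold.

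Amino acid and peptide carriers of other families had a median log2 ratio of -0.35 over 9 measured genes, with 1 past 2-fold in each direction. Slc15a3, a lysosomal peptide and histidine transporter, had 78.4 and 221.9 and was 2.83-fold higher. The peptide transporter gene Slc15a2 was 2.15-fold lower by its brightest probe set, with -0.71 and 0.25 for others, and 0 genes were lower with probe sets averaged. Slc26a6, known as an anion exchanger rather than an amino acid or peptide carrier, is among these 9 genes and was at least 1.93-fold lower. Mfsd12, a lysosomal cysteine importer, had -0.81. Among 9 measured genes for partners of transporter trafficking (median -0.16), the kinase Sgk1, which raises the surface abundance of several transporters, was 3.19-fold lower (1291.4 and 404.7). The ubiquitin ligase gene Nedd4l, which retrieves transporters from the surface, had -0.85, with 0.12 for a dim probe set, while Sgk3 (0.74) and Itgb1 (0.68) lay above 0.

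**Figure D4:**
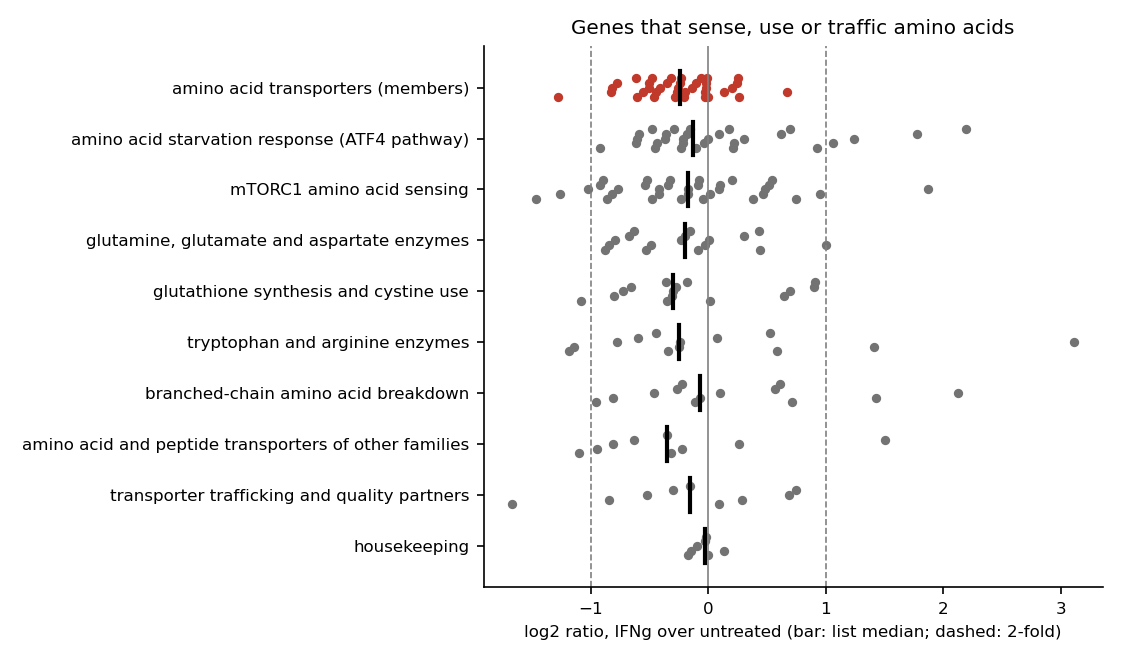
Log2 ratios of the 37 measured members (red), Slc7a6os included. Grey points are genes in lists for amino acid sensing, use and trafficking, and housekeeping genes. Each point is 1 measured gene, with each list's median as a black bar and 2-fold as dashed lines. Medians lie between -0.35 and -0.03, and Wars at 3.12 is the farthest point.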

How the data were processed

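RNA of 2 cultures was measured on 1 array each, per the labels. The authors deposited a linear intensity for each of 45101 probe sets, from 0.1 to 14895.6. How they summarised probes and corrected background is not given in the sources used here. After 64 control probe sets were left out, each array was scaled to a common mean after trimming 2% at each end (factors 1.00008 and 0.999924), signals under the pooled median of 20.4 were raised to it, and values were put on the log2 scale. On the untreated array 49.5% of probe sets were above this floor, and on the IFNg array 50.4%.

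Genes were named from the platform annotation, only where a probe set had 1 gene (34945 probe sets; 932 had several and 9160 none). All 63 members had an Entrez identifier found in the RefSeq table of GRCm38.p6. A gene took the value of its brightest probe set, by the mean of its floored log2 signals. Of 254 symbols in the other lists, 233 matched. Every measured member is given. In each other pathway list the 4 genes with the largest difference and any past 2-fold the other way are given, and Atf4, Asns, Trib3, Chac1, Ddit3, Sesn2, Mtor, Gclc, Ido1 and Cd274 were added after their values were seen. Control and marker lists are given as counts and summed signals. The members and lists were chosen with earlier results of these data known. With 1 array per group no test was made. Further motifs searched in the promoters are not reported here. The procedure was tested on simulated data. The alternatives were other scalings, a pseudocount of 16, a lower and a higher floor (pooled 25th or 75th percentile), averaged probe sets, leaving out probe sets with IDs ending in _s_at, _x_at or _a_at, and thresholds of 1.5-fold and 3-fold. Computation used Python 3.11.15 with pandas 2.3.3, numpy 2.4.6, statsmodels 0.14.6 and scipy 1.17.1, and plots matplotlib 3.10.9.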

Additional observations from a re-analysis of the deposited data

How the results depend on the processing

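Slc7a8 was the only member counted as 2-fold lower, and none was 2-fold higher, without rescaling, with a common 75th percentile, quantile normalization or a loess curve, with the floor raised to the 75th percentile, with probe sets averaged and without probe sets whose IDs end in _s_at, _x_at or _a_at. The last of these endings marks several transcripts of 1 gene, and leaving it out removed the only probe set of Slc3a2. The members' median log2 ratio was between -0.31 (75th percentile) and -0.19 (loess), where that of all genes was -0.18 and -0.07. Lowering the floor to the 25th percentile, which lets in dimmer genes, gave 2 members higher and 8 lower of 53 measured, beside 13.6% and 12.4% of all genes, and 12 and 17 probe sets. With a pseudocount of 16, 2 members (Slc7a8 and Slc36a3) and 7 probe sets were lower, beside 5.0% of all genes. A threshold of 1.5-fold gave 1 member higher and 6 lower (4 and 15 probe sets), and one of 3-fold gave 0 lower members and 1 probe set each way. The count of 2-fold higher probe sets fell to 1 with a common 75th percentile, quantile normalization or without those ID endings, and the floor at the 75th percentile left 0 higher and 1 lower. Of 37 members, 32 kept their sign under all of the alternatives that gave a ratio (27 below 0, 5 above 0). Slc1a5, Slc38a1, Slc38a2, Slc6a6 and Slc7a2 did not. Counts in the pathway lists moved by over 1.5 times under several alternatives, some of which are given beside the lists. No paired analysis was possible because each group has 1 array. Ratios of dim members, such as Slc7a11, are limited by the unknown background.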
